A study of Mus musculus with 6 samples.

Results

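The AP-1 transcription factors and *Atf3* were followed here through 6 RNA-Seq libraries of mouse mammary tissue. The 10 genes were chosen by symbol: *Atf3*, *Jdp2* and *Batf*, the Fos family (*Fos*, *Fosb*, *Fosl1* and *Fosl2*) and the Jun family (*Jun*, *Junb* and *Jund*). Of these 10, 9 had a row among the 15280 genes of the expression table, and *Fosl1* was not analysed here. All 3 mice were parous BK5.ATF3 transgenic females that had raised 1 litter. Each gave a mammary tumor, which had arisen at 6 to 12 months of age and measured 1.5 cm in its longest dimension at sacrifice, and a normal, adjacent mammary gland. Each library is named by M (gland) or T (tumor) and the number of the mouse, which gives the pairs M11035 and T11035, M11640 and T11640, and M9232 and T9232. Values are listed in this order of mice throughout. The transgene is human *ATF3* under the bovine keratin 5 promoter, which is active in basal epithelial cells. The glands carried it too and there was no wild-type group, so tumor was compared with gland within transgenic animals, and mice with and without the transgene were not compared.

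AP-1 is a dimer of basic leucine zipper (bZIP) proteins, in which a zipper of leucines joins the partners and a basic region grips the DNA. Jun proteins can pair with each other, whereas Fos proteins need a Jun partner. Dimers of Fos and Jun bind the sequence TGANTCA with C or G at N. Dimers that hold an ATF or CREB protein bind TGACGTCA or its core TGACG. The search for TGANTCA below allowed any base at N, so it is wider than the site. Many of the genes are immediate-early genes, switched on within minutes by growth factors, wounding or stress through the MAP kinases, and in stratified epithelium AP-1 is known for its part in keratinocyte differentiation.

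The promoters of the 9 genes are shown first, since several of these factors are known to bind each other's promoters. RefSeq (GRCm38.p6) gave 11 start sites for the 9 genes, each with a window of 250 bases before to 50 bases after the start, and each motif was searched on both strands. TGANTCA was present in 7.81% and TGACGTCA in 1.79% of all 32841 promoter windows of the mouse, and neither was found in the 11 windows of these genes. The shorter TGACG, which is also contained in TGACGTCA, was present in 20.8% of all windows and in 6 of the 11, those of *Atf3*, *Fos*, *Fosb*, *Junb*, *Jdp2* and *Batf*. The variant TGACATCA was present in 3.62% of all windows and in the *Jun* window. No match was found in the windows of *Fosl2* and *Jund*. Each stretch is printed 5′ to 3′ on the strand of its gene, with the match in capitals (in *Atf3* the match is on the opposite strand and reads CGTCA), to show how the same short core sits in different surroundings in each gene. A match describes these letters and is not evidence of binding. In order, the matches begin 7, 45, 60, 106, 66, 129, 114 and 98 bases before the start.
Atf3, chr1:191183334-191183351, minus strand: taatagcattaCGTCAgc
Jun, chr4:95052249-95052278, minus strand: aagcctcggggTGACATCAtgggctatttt
Fosb, chr7:19310090-19310116, minus strand: ggagttgcgggTGACGcaagcgcgggg
Junb, chr8:84978839-84978865, minus strand: cttcctgacagTGACGcgagccgcctc
Fos, nearer match, chr12:85473813-85473839, plus strand: gttccgcccagTGACGtaggaagtcca
Fos, farther match, chr12:85473750-85473776, plus strand: gggcgtagagtTGACGacagagcgccc
Jdp2, chr12:85599291-85599317, plus strand: ccgtccccctcTGACGtgtggagctgg
Batf, chr12:85686611-85686637, plus strand: ttctaacttgtTGACGtttccgcccat

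The values are CPM (counts per 1000000 fragments) on the authors' effective library size, from 4750989 to 7806908 fragments on genes per library. The 9 genes had from 5 to 2348 fragments in a library, and none was at or under a floor of 3 fragments (0.393 to 0.610 CPM). A gene was called a differentially expressed gene (DEG) at an FDR of at most 0.05 and a fold change (FC) of at least 2 in limma, fitted on log2(CPM + 0.5), a scale that understates the change of low genes. The tissues differed widely in their cell markers. Of the basal and squamous epithelial markers, 11 of 12 were upregulated in tumors and none downregulated (summed level 115 to 163 CPM in glands and 5159 to 7413 in tumors), with *Krt5* at 24.6 ± 13.3 CPM in glands and 986 ± 71.1 in tumors (SD, n = 3). Of the luminal markers 3 were upregulated and 5 downregulated of 9, of the neutrophil markers 6 of 7 and of the fibroblast markers 4 of 8 were upregulated, and none of the latter 2 lists was downregulated. All 8 adipocyte, 10 T cell and 8 B cell markers were downregulated, as were 1 of 8 macrophage, 3 of 7 endothelial and 1 of 6 skeletal muscle markers. In these bulk libraries, more cells of a type and more RNA per cell cannot be told apart, and the part of these cell types in the values that follow was not tested.

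Of the 9 genes, 3 were upregulated in tumors (*Fosl2*, *Junb* and *Jun*) and 0 were downregulated, against 14.5% and 13.7% of all 15280 genes. All 3 tumors lay above all 3 glands for 4 of the 9 (*Fosl2*, *Junb*, *Jun* and *Jdp2*), against 27.6% of all genes, and all 3 lay below for 0, against 26.3%. The other 5 overlapped between the tissues. Only *Fosl2* was called without gland M11640, without tumor T9232 or without both M11640 and T11640, and 4 genes were called without gland M9232, where *Atf3* and *Fos* joined *Fosl2* and *Jun*. In these fits, in the same order, 2128, 2011, 1678 and 2237 of all genes were upregulated, against 2212 with all libraries. The log2 FC was positive for 8 of the 9, against 7616 of all 15280 genes, with a median of 0.80 beside a median of -0.003 over all genes.

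**Figure D1:**
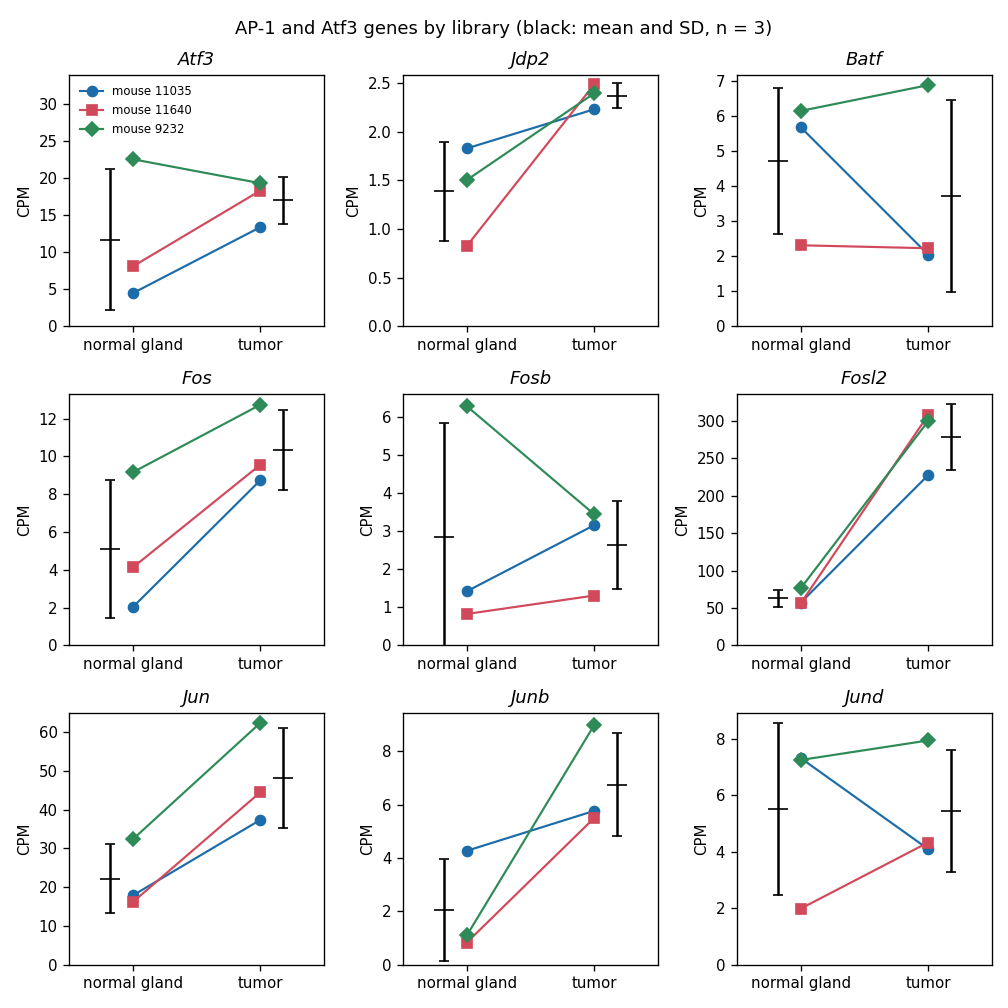
CPM (vertical axes, each from 0) of the 9 genes in the gland and the tumor of each mouse, with lines joining the libraries of 1 animal and black bars for the mean and SD of 3 mice (the lower SD bar of Fosb runs below 0 and is not shown there). Fosl2 separates the tissues most widely (56.0 to 76.2 against 227 to 308 CPM), while for Atf3, Fos and Fosb gland M9232 reaches into or above the range of the tumors.

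*Atf3*, a stress-induced bZIP repressor and activator (mm9 chr1:192994175-193007219, minus strand, 4 exons), was measured at 4.47, 8.09 and 22.6 CPM in glands M11035, M11640 and M9232 and at 13.4, 18.3 and 19.3 CPM in the tumors of the same mice. Gland M9232 was the highest of all 6 libraries, and the other 2 glands were the lowest, so the tissues overlapped. The mean was 11.7 ± 9.58 CPM in glands and 17.03 ± 3.18 CPM in tumors (SD, n = 3), and the log2 FC of 0.80 (SE 0.49, 95% interval -0.32 to 1.91) did not pass the test (adjusted p = 0.223, limma). T11035 was 3.00-fold and T11640 2.27-fold above the gland of the same mouse, and T9232 stood at 0.856 of its gland. Without gland M9232, the log2 FC was 1.41 (adjusted p = 0.00804, limma) and *Atf3* was called upregulated, as it was without both M9232 and T9232 (1.31, adjusted p = 0.0321). Reads of the human transgene that match the mouse gene cannot be told apart from those of mouse *Atf3* in this table, so its level is no check of the transgene and may hold part of it.

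The spread of *Atf3* among the glands was wider than counting error. The 22 fragments of *Atf3* in gland M11035 had a 95% exact Poisson interval of 2.80 to 6.77 CPM and the 165 fragments in M9232 one of 19.3 to 26.3 CPM (counting error only). Gland M9232 was also the highest gland for *Fos*, *Fosb*, *Fosl2*, *Jun* and *Batf*, making 6 of the 9 genes, whereas 31.4% of all genes were highest there. Gland M11035 was the highest for *Junb*, *Jund* and *Jdp2*, and gland M11640 for 0 of the 9, against 36.9% and 31.7% of all genes. For *Batf*, *Jund* and *Jdp2* the Poisson intervals of M11035 and M9232 overlapped, so counting error leaves their highest gland uncertain. In M11035 and M9232 these intervals were 3.78 to 8.23 and 4.49 to 8.24 CPM for *Batf*. They were 5.13 to 10.1 and 5.43 to 9.48 CPM for *Jund*, and 0.84 to 3.47 and 0.75 to 2.69 CPM for *Jdp2*. Among 27 other immediate-early genes, the highest gland was M9232 for 12, M11035 for 10 and M11640 for 5. This gland also differed in its cell markers. It was the highest gland for 9 of 9 luminal markers, with a summed level of 15091 CPM beside 1000 and 1364 CPM in the other glands, most of it the milk casein *Csn2* at 14121 CPM. It was also the highest for 7 of 8 macrophage markers, with summed levels of 251, 791 and 868 CPM in glands M11035, M11640 and M9232 and 411 to 678 CPM in tumors. The part of either cell type in the *Atf3* values was not tested.

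The 3 genes whose profile over the 6 libraries was nearest to that of *Atf3*, among 14711 genes whose mean reached 1 CPM, were *St18*, *Ctss* and *Cd14*. Likeness was the Euclidean distance between log2(CPM + 0.5) profiles after each gene's own mean was subtracted, which came to 0.36, 0.41 and 0.42. *St18*, a zinc finger factor, had 1.02, 1.65 and 6.29 CPM in glands and 3.35, 3.93 and 4.196 in tumors. *Ctss*, a lysosomal protease of antigen-presenting cells, had 316, 608 and 1234 CPM in glands and 686, 1123 and 1160 in tumors. *Cd14*, a receptor for bacterial lipopolysaccharide on monocytes and macrophages, had 10.98, 19.7 and 48.3 CPM in glands and 32.9, 34.1 and 53.2 in tumors. All 3 shared with *Atf3* the order of the glands, with M9232 highest, and the overlap between tissues. They were picked for nearness to the *Atf3* values, so this likeness is no separate finding. Of the other AP-1 genes, *Fos* was the nearest, at rank 9 with a distance of 0.57, and *Jun* stood at rank 198. These profiles share their 6 libraries and were compared as a description.

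*Jdp2* (chr12:86940366-86980827, mm9) and *Batf* (chr12:87027619-87050037, mm9) are the other members with a small bZIP protein. *Jdp2* pairs with Jun proteins and is known mainly as a repressor, and *Batf* is best known from lymphocytes, where it pairs with Jun proteins and IRF factors. Both lie downstream of *Fos* on the plus strand of chromosome 12. *Jdp2* had 1.83, 0.83 and 1.50 CPM in glands and 2.23, 2.49 and 2.40 CPM in tumors. It was low everywhere, at 5 to 19 fragments per library, and the tumors lay above the glands in 3 of 3 mice without overlap, yet the log2 FC of 0.64 (SE 0.32, 95% interval -0.09 to 1.38) did not pass the test (adjusted p = 0.144, limma). *Batf* had 5.69, 2.31 and 6.16 CPM in glands and 2.05, 2.23 and 6.89 CPM in tumors. The tissues overlapped, the tumor was higher in 1 of 3 mice, and the log2 FC was -0.39 (SE 0.49, adjusted p = 0.559, limma), while the summed level of the T cell markers stood at 203 to 524 CPM in glands and 32.6 to 51.2 CPM in tumors and that of the B cell markers at 313 to 764 and 9.29 to 12.1 CPM. The interval for *Batf*, -1.52 to 0.73, left room for a change of the size the DEG threshold asks for in the downward direction.

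The Fos family supplied the largest and the least certain differences. *Fosl2* encodes Fra-2, a Fos protein that lacks the strong activation domain of c-Fos (chr5:32438845-32460204, mm9, plus strand). It had 56.9, 56.0 and 76.2 CPM in glands and 227, 308 and 300 CPM in tumors. Every tumor was far above every gland, and the mean went from 63.0 ± 11.4 to 278 ± 44.2 CPM (SD, n = 3), a 4.41-fold rise with a log2 FC of 2.13 (SE 0.18, adjusted p = 4.7e-05, limma). Within the mice, the tumor was 3.99-fold, 5.50-fold and 3.93-fold higher than the gland. *Fosl2* kept its call under all 18 alternative settings, with log2 FCs of 1.98 to 2.28, the only member to do so among the 3 upregulated.

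*Fos* encodes c-Fos, the founding immediate-early factor (chr12:86814840-86818223, mm9, plus strand). It had 2.03, 4.13 and 9.16 CPM in glands and 8.75, 9.57 and 12.7 CPM in tumors. The tumor was higher in each of the 3 mice, by 4.30-fold, 2.32-fold and 1.39-fold, but gland M9232 stood above tumor T11035. The log2 FC of 1.15 (SE 0.45, 95% interval 0.13 to 2.16) did not pass the test (adjusted p = 0.0690, limma). With the mouse as a replicate block it did, at an adjusted p of 0.0265 in limma and 0.0323 in edgeR on the recovered reads. It also did so without gland M9232, where the log2 FC was 1.65 (adjusted p = 0.00616, limma), and without both M9232 and T9232 (1.49, adjusted p = 0.0263). *Fosb*, a close relative of *Fos* (chr7:19888070-19895394, mm9, minus strand), had 1.42, 0.83 and 6.29 CPM in glands and 3.16, 1.31 and 3.45 CPM in tumors. Gland M9232 was again the highest library, and the log2 FC of 0.20 (SE 0.61, adjusted p = 0.821, limma) had an interval of -1.18 to 1.58, so that neither a doubling nor a fall by the same factor was outside the precision of these libraries.

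In the Jun family, *Jun*, which encodes c-Jun (chr4:94715725-94718913, mm9, minus strand, single exon), had 17.9, 16.2 and 32.4 CPM in glands and 37.4, 44.6 and 62.5 CPM in tumors. The tissues did not overlap, and the tumor was higher in 3 of 3 mice, by 2.09-fold, 2.75-fold and 1.93-fold. *Jun* was called at a log2 FC of 1.14 (SE 0.29, adjusted p = 0.0146, limma) but not without gland M11640 (0.95, adjusted p = 0.0482), without tumor T9232 (0.93, adjusted p = 0.0611) or without both M11640 and T11640 (0.99, adjusted p = 0.122). The gene shares 232 bp of exon with *BC042782* in the mm9 annotation used here. The library kit does not mark strand, so reads of that stretch cannot be assigned to either gene.

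*Junb*, whose protein is a weaker activator than c-Jun (chr8:87500811-87502617, mm9, minus strand, single exon), had 4.27, 0.83 and 1.09 CPM in glands and 5.77, 5.50 and 8.99 CPM in tumors. These were 21, 5 and 8 fragments in glands and 31, 42 and 60 in tumors, and the 5 fragments of gland M11640 had a 95% exact Poisson interval of 0.27 to 1.93 CPM. Every tumor was above every gland, and the rise from 2.06 ± 1.92 to 6.75 ± 1.94 CPM (SD, n = 3) had a log2 FC of 1.72 (SE 0.48, 95% interval 0.62 to 2.82, adjusted p = 0.0209, limma). The rise within a mouse was uneven, at 1.35-fold from M11035 to T11035, 6.66-fold from M11640 to T11640 and 8.22-fold from M9232 to T9232. The call was lost without gland M11640 or M9232, without tumor T11640 or T9232, or without both libraries of either of these mice (log2 FCs of 1.29 to 1.84, adjusted p of 0.0526 to 0.151, limma). *Jund*, the Jun gene least dependent on stimulation (chr8:73221638-73224515, mm9, plus strand, single exon), had 7.32, 1.98 and 7.25 CPM in glands and 4.09, 4.32 and 7.94 CPM in tumors. Its tissues overlapped, and its log2 FC of 0.10 (SE 0.47, 95% interval -0.98 to 1.19) did not pass the test (adjusted p = 0.883, limma). Its values are uncertain, since 543 bp of its exon overlap *Gm11175* in the same annotation. Its 2 transcripts also had 2 alignments of at least 76 bp and at least 90% identity to transcripts of other genes, which may be the same stretch.

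**Figure D2:**
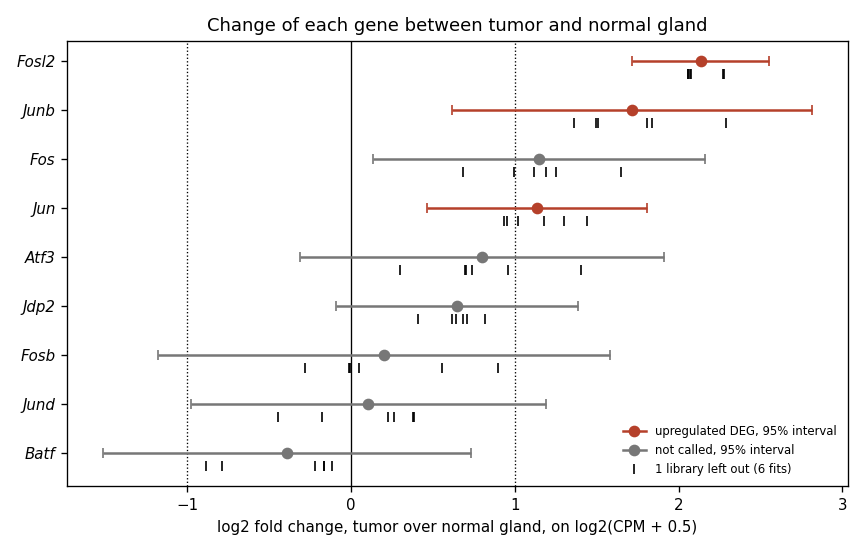
Log2 fold change of tumor over normal gland on log2(CPM + 0.5) for the 9 genes, with 95% intervals from limma before adjustment (red: upregulated DEG, gray: not called) and ticks for the 6 fits that each left out 1 library. The ticks of Fosl2 stay close to its value of 2.13, while those of Atf3, Fos and Junb spread to both sides of it, and the dotted lines mark the FC threshold.

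Levels of different genes were compared per kb of exon, using mm9 exon lengths. Length was the only difference between genes that was adjusted for. The lengths are from GENCODE, whereas the authors counted on RefSeq genes, so the order of genes is approximate. In glands the order of the mean CPM per kb was *Fosl2* (10.8 ± 1.95, SD, n = 3), *Jun* (6.95 ± 2.80), *Atf3* (5.90 ± 4.83), *Batf* (4.94 ± 2.20), *Fos* (2.17 ± 1.56), *Jund* (1.92 ± 1.06), *Junb* (1.14 ± 1.06), *Jdp2* (0.79 ± 0.29) and *Fosb* (0.76 ± 0.80). The ranges of every pair of neighbours in this order overlapped. In tumors the order was *Fosl2* (47.5 ± 7.55), *Jun* (15.1 ± 4.05), *Atf3* (8.58 ± 1.60), *Fos* (4.40 ± 0.90), *Batf* (3.90 ± 2.88), *Junb* (3.74 ± 1.07), *Jund* (1.89 ± 0.75), *Jdp2* (1.35 ± 0.07) and *Fosb* (0.70 ± 0.31). Of the neighbours in this order, *Fos* and *Batf*, and *Batf* and *Junb*, had overlapping ranges and the other 6 pairs did not. The first 3 and the last 2 places were the same in both tissues.

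*Fosl2* held most of the Fos family transcripts measured (without *Fosl1*) in every library, at 88.7, 82.9 and 70.0% of the summed CPM per kb in glands and 89.5, 92.2 and 89.0% in tumors. Its share was higher in the tumor in 3 of 3 mice, and the mean share went from 80.5 ± 9.55 to 90.2 ± 1.76% (SD, n = 3). The exact two-sided permutation test over the libraries gave p = 0.1, the smallest p that 3 against 3 allows, and an adjusted p of 0.30 over the 6 shares tested. *Fos* took 7.88, 15.2 and 21.0% in glands and 8.57, 7.14 and 9.42% in tumors, and *Fosb* 3.46, 1.91 and 9.03% in glands and 1.94, 0.61 and 1.60% in tumors. Gland M9232 had the highest share of both and the lowest of *Fosl2*. The summed level of the family was 10.97, 11.5 and 18.6 CPM per kb in glands and 43.4, 56.97 and 57.5 in tumors.

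*Jun* held most of the Jun family in every library, at 53.3, 81.6 and 76.5% in glands and 71.8, 75.4 and 71.7% in tumors. *Jund* had 24.2, 11.1 and 19.0% in glands and 8.70, 8.11 and 10.1% in tumors, and *Junb* had 22.5, 7.35 and 4.56% in glands and 19.5, 16.4 and 18.2% in tumors. The *Jund* share was lower in the tumor in 3 of 3 mice and did not overlap, at p = 0.1 and an adjusted p of 0.30 by the same exact permutation test. A share also depends on the other genes of its family. The level of *Jund* itself was 5.52 ± 3.06 CPM in glands and 5.45 ± 2.16 CPM in tumors, while *Jun* and *Junb* were upregulated. The *Jund* values are also uncertain because of the overlap and alignments given above. The shares of *Jun* and *Junb* overlapped between tissues. The summed level of the family was 10.5, 6.22 and 13.3 CPM per kb in glands and 16.3, 18.5 and 27.3 in tumors. The Fos family sum, without *Fosl1*, was above the Jun family sum in all 6 libraries, but only narrowly in M11035 (10.97 and 10.5 CPM per kb).

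**Figure D3:**
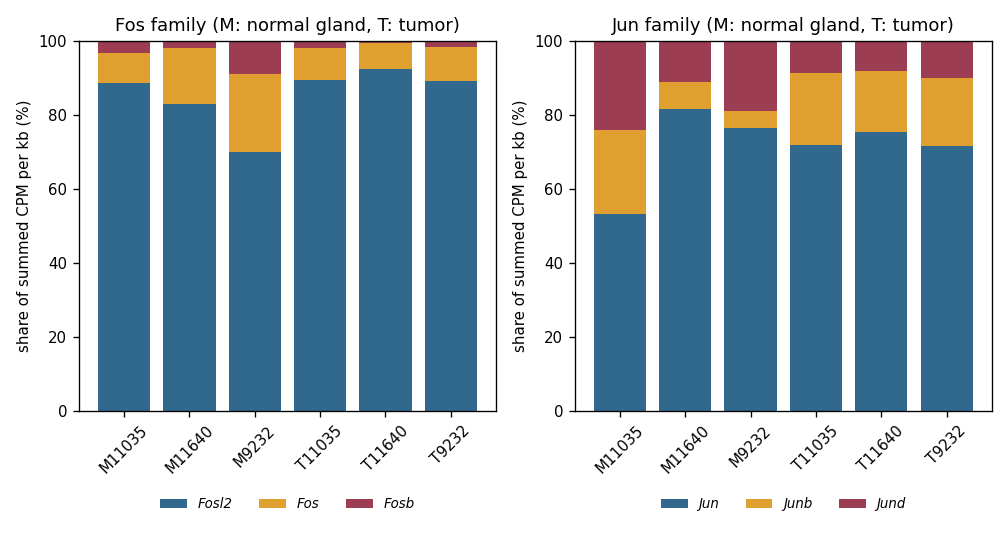
Share of the summed CPM per kb (percent, from 0 to 100) taken by each gene of the Fos family (left, without Fosl1) and of the Jun family (right) in each library. The tumors resemble each other more than the glands do, with Fosl2 at 89.0 to 92.2% of its family in tumors and 70.0 to 88.7% in glands.

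The genes around AP-1 were described by lists, to be read against the 14.5% of all genes that were upregulated and the 13.7% that were downregulated. Among bZIP relatives and partners, 6 of 30 rose and 2 fell as DEGs, and the median log2 FC was 0.04. Without both M11640 and T11640, 2 rose, and of all genes 1678 were upregulated in that fit, against 2212 with all libraries. *Cebpb*, a C/EBP factor of inflammation and epithelial growth, rose from 3.25 ± 0.43 to 8.99 ± 1.16 CPM (log2 FC 1.34), and *Nfil3*, a bZIP repressor of the circadian and immune systems, rose from 5.24 ± 1.61 to 13.7 ± 5.45 CPM (1.28). *Cebpa*, which drives adipocyte differentiation, fell from 72.7 ± 15.7 to 18.5 ± 7.45 CPM (-1.99), and *Bach2*, a repressor known from B and T cells, fell from 91.9 ± 42.4 to 21.1 ± 0.78 CPM (-1.99). The adipocyte markers summed to between 3282 and 6446 CPM in glands and between 145 and 209 CPM in tumors. The T cell markers summed to 524, 203 and 375 CPM and the B cell markers to 764, 313 and 490 CPM in glands M11035, M11640 and M9232, the same order of glands as for *Bach2* at 137, 52.4 and 86.6 CPM, and stood at 32.6 to 51.2 CPM and 9.29 to 12.1 CPM in tumors. The part of these cells in the levels of *Cebpa* and *Bach2* was not tested.

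The MAP kinase cascade, which phosphorylates Jun and ATF proteins and induces *Fos*, had 3 of 37 genes upregulated and 3 downregulated, and a median log2 FC of 0.08. The downregulated count was 1 without tumor T9232, without both M9232 and T9232, or without both M11640 and T11640. In these fits 1922, 1963 and 1502 of all genes were downregulated, against 2097 with all libraries. *Mapk13*, a p38 kinase of epithelia, went from 1.63, 1.65 and 0.96 CPM in glands to 12.8, 17.7 and 16.8 CPM in tumors (log2 FC 3.10), and *Hras1* from 5.74 ± 0.68 to 15.97 ± 3.25 CPM (1.39). *Mapk12*, a p38 kinase abundant in muscle, fell from 6.19 ± 2.22 to 1.92 ± 0.55 CPM (-1.43), and *Map3k5*, the stress kinase ASK1, fell from 99.4 ± 4.02 to 48.7 ± 3.85 CPM (-1.02). The skeletal muscle markers summed to 4027, 1530 and 3.69 CPM in glands M11035, M11640 and M9232 and to 6.95 to 14.3 CPM in tumors, with *Acta1* at 0 in gland M9232, and *Mapk12* was at 7.93, 6.94 and 3.69 CPM in these glands. The part of muscle in that value was not tested. Of the MAP kinase phosphatases, which switch the kinases off, 4 of 9 rose and 1 fell as DEGs, and the median log2 FC was 0.80. *Dusp7* rose from 12.2 ± 5.55 to 33.9 ± 4.80 CPM (1.51), *Dusp10*, joined by 1 more gene without both M11035 and T11035, fell from 13.8 ± 6.58 to 4.24 ± 1.03 CPM (-1.52), and *Dusp9* was under the floor of 3 fragments in all glands and at 7.82, 7.99 and 12.0 CPM in tumors.

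Immediate-early genes outside AP-1, which answer the same signals, had 7 of 27 genes upregulated and 1 downregulated at a median log2 FC of 0.68. Of the 27, 26 had a positive log2 FC, against 7616 of all 15280 genes. Like the other lists, this one was compiled with earlier results of these data known, so its counts are no independent evidence of a direction. Without both M11640 and T11640, 4 were upregulated, and of all genes 1678 were, against 2212 with all libraries. *Ier3*, a survival gene, rose from 5.37 ± 1.67 to 42.7 ± 21.6 CPM (log2 FC 2.81). *Klf4*, a zinc finger factor of epithelial differentiation, rose from 29.3 ± 12.2 to 175 ± 46.3 CPM (2.62). *Klf2*, a zinc finger factor of endothelium and resting lymphocytes, fell from 11.5 ± 2.75 to 2.88 ± 0.83 CPM (-1.83), while the summed endothelial markers stood at 362 to 494 CPM in glands and 207 to 295 CPM in tumors. The summed T cell markers stood at 203 to 524 CPM in glands and 32.6 to 51.2 CPM in tumors, and the summed B cell markers at 313 to 764 CPM and 9.29 to 12.1 CPM. The part of these cells in the *Klf2* level was not tested.

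Among 25 genes that textbooks name as AP-1 targets, 22 rose and 0 fell as DEGs, and the median log2 FC was 3.06 (also with *Lor*, listed at 0 in all glands, set to its bound). This list was compiled with earlier results of these data known, so the count describes these genes and is no independent evidence of a direction. *Mmp13*, a collagenase, had 10.98, 3.30 and 11.1 CPM in glands and 688, 721 and 812 CPM in tumors (log2 FC 6.54), and *Mmp10*, a stromelysin, was at or under the floor of 3 fragments in all glands and at 87.5, 103 and 206 CPM in tumors. The 3 genes not called were *Vegfa* (log2 FC -0.61), *Spp1* (-0.33) and *Tgfb1* (0.14), named here after their values were seen. Several of the list, such as the cornified envelope genes *Ivl* and *Lor*, are also markers of squamous epithelium, whose markers rose in the same tumors, and the part of that cell type in the count was not tested.

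**Figure D4:**
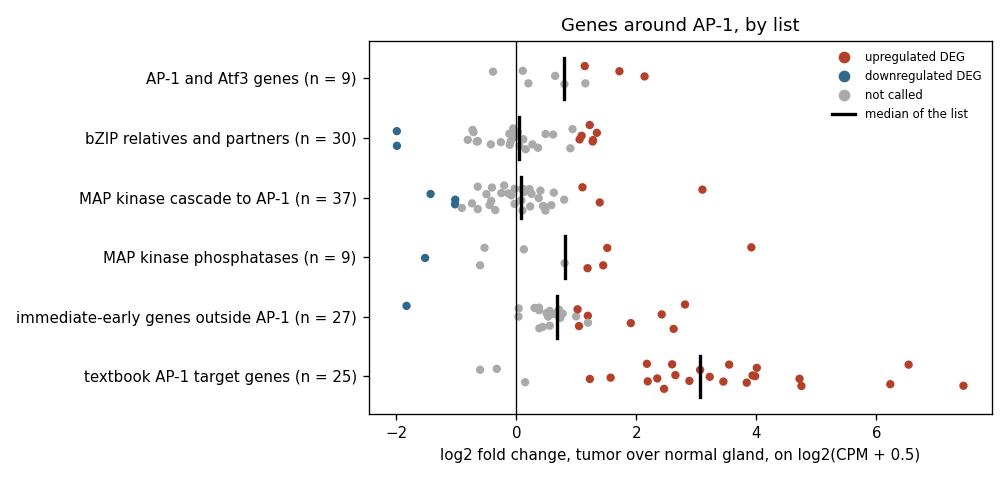
Log2 fold change of tumor over normal gland on log2(CPM + 0.5) for each gene of the AP-1 and Atf3 set and of 5 lists around it (red: upregulated DEG, blue: downregulated DEG, gray: not called, black line: median of the list; vertical scatter within a list has no meaning). The kinase cascade and the bZIP relatives center near 0 (medians 0.08 and 0.04), and the AP-1 target list lies furthest to the right (median 3.06); values of genes near 0 CPM in glands, such as Mmp10, depend on the added 0.5.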

How the data were processed

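RNA-Seq values were taken from the authors' table of 3 tumors and 3 glands. Per the labels and methods, libraries were made with the Ovation RNA-Seq System V2, and the authors mapped read pairs to mm9 with TopHat2 2.0.3, counted fragments on RefSeq genes with HTSeq 0.5.3p9 and used edgeR 3.6.1. They deposited a normalized signal in CPM on the effective library size. Columns therefore sum to 952151 to 1041166 and not to 1000000. In each library 100% of values were whole multiples of 1 fragment (tolerance 1e-06), so fragments were recovered for the count tests. The lowest total was 11 fragments, and 0 columns were left out.

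The test was limma 3.58.1 (R 4.3.3) on log2(CPM + 0.5), with a trend and Benjamini-Hochberg adjustment over 15280 genes. The unit was recorded as a signal and takes the test planned for CPM. DEGs needed an FDR of 0.05 or less and a log2 FC of 1 or more in size. Alternatives used edgeR 4.0.16, DESeq2 1.42.0, other pseudocounts, filters and scalings, the mouse as a block, and fits without each library or mouse. Mouse numbers pair each tumor with a gland taken from the same animal. Within these pairs, deviations from the tissue mean had r of 0.107, 0.151 and 0.0168 over 14712 genes. Other pairs were not compared, so these r are no check of the pairing, which rests on the labels and the paper. The study's methods name no block, so the fit without it is reported. Scripts were tested on simulated data. No libraries of a tissue were copies (lowest chi-square per degree of freedom 13.0).

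The genes, lists and rules were chosen with earlier results of these data known. Named are all 10 genes, from each list the 2 DEGs that rose most and the 2 that fell most (mean of at least 1 CPM), the 3 genes most like *Atf3*, and the first marker of a cell type, not all of which are used here. Shares were tested over 6 genes, since *Fosl1* was not analysed. Gene positions and exon lengths are from mm9 (GENCODE vM1), and promoters from RefSeq on GRCm38.p6.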

Additional observations from a re-analysis of the deposited data

How the results depend on the processing

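The number of upregulated AP-1 genes was 1 to 4 when single libraries or mice were left out, against 3 with all of them. It was 1 (*Fosl2*) without gland M11640, without tumor T9232 and without both M11640 and T11640, and the other alternatives moved it to no fewer than 2. With the replicate block for the mouse it was 4, the added gene being *Fos* (log2 FC 1.15, adjusted p = 0.0265 in limma, and 1.13, adjusted p = 0.0323 in edgeR with the block), and the block changed no other call. The downregulated count was 0 in all 18 alternatives. For the log2 FCs of the 9 genes, 135 of 162 recomputed values kept direction and call, 9 lost the call, 6 gained it and 12 changed sign. The calls that moved did so when libraries or mice were left out, where the log2 FC ran from 0.30 to 1.41 in *Atf3*, 0.68 to 1.65 in *Fos*, 0.93 to 1.44 in *Jun* and 1.29 to 2.38 in *Junb*, and in *Fos* also with the block. The sign changed in *Fosb* (-0.18 in edgeR, -0.12 in DESeq2, and -0.28 to 0.89 with libraries or mice left out), in *Jund* (-0.011 in edgeR, -0.0016 in DESeq2, and -0.44 to 0.54) and in *Batf* (-0.89 to 0.054). Among other named genes *Csf1r* changed sign (-0.20 to 0.62 with libraries or mice left out) and 18 of 522 values changed the call, among them *Nfil3*, *Mapk12* and *Map3k5*, which each lost it in some fits with fewer samples. The difference in the *Jun* share ranged from -5.47 to 6.81 percentage points with both libraries of a mouse left out. Of 180 recomputed list counts, 174 stayed within 1.5 times their value. The others all came from leaving out libraries or mice, an alternative added after seeing the data, which gave 2 to 7 upregulated bZIP relatives, 4 to 9 upregulated immediate-early genes, and 1 to 3 downregulated kinase and 1 to 2 downregulated phosphatase genes. The low fragment numbers of *Fosb*, *Junb*, *Jdp2* and *Batf* limit their precision, and with 3 mice a share cannot reach an exact permutation p below 0.1. The cause of a changed call was not tested.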

Other observations

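Several relatives of these genes that have not been described were DEGs, and they are named here after their values were seen. The bZIP factors *Nfe2l2* and *Nfe2l3*, the former being the regulator of the antioxidant response, had 110, 129 and 141 CPM and 34.97, 41.3 and 56.9 CPM in glands, and 230, 295 and 263 CPM and 99.7, 108 and 109 CPM in tumors. Their log2 FCs were 1.052 and 1.27. *Creb3l1*, a bZIP factor anchored in the endoplasmic reticulum, had 3.86, 8.09 and 8.75 CPM in glands and 16.7, 15.3 and 15.6 CPM in tumors (log2 FC 1.22). *Maff*, a small Maf protein, had 5.69, 7.43 and 9.99 CPM in glands and 10.8, 14.0 and 29.5 CPM in tumors (1.09). Each of these 4 genes was higher in every tumor than in every gland, as were 10 of the 30 bZIP relatives and 27.6% of all genes. They were picked from the upregulated DEGs, so this separation is no independent evidence.

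Among the phosphatases, *Dusp6*, which acts on ERK, had 26.2, 33.7 and 35.8 CPM in glands and 69.2, 76.5 and 72.1 CPM in tumors (log2 FC 1.18), and *Dusp5* had 0.61, 0.83 and 0.96 CPM in glands and 1.86, 3.41 and 4.196 CPM in tumors (1.45). Of the kinases, *Map2k3*, which activates p38, had 18.5, 19.2 and 18.6 CPM in glands and 37.4, 37.1 and 48.8 CPM in tumors (1.10), while *Rps6ka5*, a kinase of CREB and histone H3, had 33.1, 28.1 and 27.4 CPM in glands and 19.0, 13.9 and 10.9 CPM in tumors (-1.02).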
